A study of Mus musculus with 24 samples.

Results

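The 8 arrays described here compared livers of male mice that lacked the forkhead factors Foxa1 and Foxa2 (double knockout, dKO) with livers of wild-type (WT) males, 4 arrays in each group, after the same liver carcinogenesis protocol. They were chosen by their labels, male, treated, and WT or dKO, and are 8 of the 24 arrays of the series. Per the labels, mice of both groups were given 20 mg/kg of diethylnitrosamine (DEN), a carcinogen, as pups of 14 to 15 days. From 2 weeks later they received the tumour promoter TCPOBOP, 3 mg/kg every 2 weeks for 8 injections. The other 16 arrays were of treated females and untreated females of both genotypes, and untreated males were not analysed here, so an effect of genotype in males cannot be separated from an effect that needs the treatment. Not given in the sources used here are the strain, the age at collection, the deleted part of each gene and the means and cell type of deletion. The labels call all 24 samples liver tumour, untreated ones included, so tumour and surrounding liver cannot be told apart from them. The labels also do not say that replicates came from separate animals, and the p-values then measure only the spread between these samples, which may be technical.

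Foxa1, Foxa2 and Foxa3 are forkhead transcription factors of liver, pancreas, gut and lung. In the liver they bind the regulatory regions of many hepatocyte genes, take part in opening chromatin when liver cells are first specified, and act beside hormone receptors at many sites. DEN is turned by hepatocyte enzymes into a DNA-alkylating agent, and TCPOBOP activates the nuclear receptor CAR, which induces drug-metabolizing enzymes and drives hepatocytes to divide. Male mice develop more liver tumours than females under such protocols, and the title of the series places the study in the control of that difference by these Foxa factors.

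Expression was measured on one-colour arrays, and a level is given here as the log2 signal of a gene's probe minus the 75th percentile of its array, so that 0 stands for a gene at that percentile. Levels of different genes are not compared, since probes differ in brightness. A difference is dKO minus WT on this log2 scale, ± its standard error from a limma fit of all 24 arrays, with 4 arrays in each group, and a gene is said to have changed where its Benjamini-Hochberg adjusted p was under 0.05. Where every array of the dimmer group was not well above background, only a bound ("at least N-fold") is given, from the bright group's mean against the higher of the lowest signal well above background and the gene's own signal. Between 52.7% and 64.8% of spots were well above background on the 8 arrays, lowest on WT replicate 1. Correlations over all genes were 0.971 to 0.987 within WT, 0.984 to 0.990 within dKO and 0.951 to 0.968 between the groups. Replicate numbers are those of the labels and carry no order.

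Several features of these arrays bear on all that follows. Xist, the RNA of the inactive X chromosome, was above background on dKO replicates 1 and 4, at -1.28 and -2.73, and on none of the other 6 arrays, while all females lay at 4.57 to 5.45. The Y-linked genes Ddx3y, Eif2s3y, Kdm5d and Uty were at male levels on all 8 arrays. Results are therefore also given without these 2 arrays. All 4 WT arrays lay at position 1 of their slides and the dKO arrays at positions 3 and 4, so position and genotype cannot be told apart within these males. Slides were shared by 3 pairs, WT and dKO replicates 2, WT replicate 3 with dKO replicate 1, and WT replicate 4 with dKO replicate 3, which gives 3 differences within a slide.

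The targeted genes separated the groups. Foxa2, whose probe lies on chromosome 2 (147868698 to 147868757 of mm9), was at 3.78, 3.71, 3.55 and 3.72 on WT replicates 1 to 4 and at -2.83, -4.86, -5.90 and -3.63 on the dKO arrays. The difference was -7.99 ± 0.77 (adjusted p = 3.52e-07), and on 2 of the 4 dKO arrays the signal was still above background. Foxa1 (chromosome 12, 58641996 to 58642055) was at -2.23, -3.16, -2.65 and -2.51 in WT and above background on none of the dKO arrays, where it measured -7.59, -6.79, -7.43 and -7.43, so it was at least 5.99-fold lower (adjusted p = 1.38e-09). Foxa3, the third member of the family and not named as a target in the labels, was at 1.15, 1.30, 1.59 and 1.27 in WT and at 2.28, 2.38, 1.97 and 2.34 in dKO. All 4 dKO arrays lay above all WT arrays, with a difference of 0.92 ± 0.27 (adjusted p = 0.0176). This call was lost with slide as a fixed block (0.88) and without dKO replicates 1 and 4 (0.85), and with position as a covariate the difference was 0.0085. Of the 14 forkhead genes tested, Foxa3, Foxo1 (0.70 ± 0.13), Foxc1 (1.96 ± 0.25) and Foxj1 rose. Foxm1, the forkhead activator of mitotic genes, and Foxk1 (-0.57 ± 0.11) fell along with the targeted pair. The call of Foxk1 was lost with normexp background correction and with the mean of its probes, and that of Foxc1 with normexp. Foxj1, the master regulator of motile cilia, was above background on all 4 dKO arrays (-0.13, -1.16, -0.58 and -0.67) and on no WT array (-6.14, -5.02, -7.36 and -5.28), and was at least 20.6-fold higher (adjusted p = 1e-06).

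Of 19238 genes tested, 4872 (25.3%) differed between dKO and WT males by limma, 2794 (14.5%) higher and 2078 (10.8%) lower in dKO. By 2-fold or more 1214 genes (6.31%) rose and 667 (3.47%) fell. The 4 dKO values did not overlap the 4 WT values for 5498 genes (28.6%). The median difference over all genes was 0.046. Of the called genes 57.3% were higher, but 37.5% with arrays centred on their medians (a shift of the median of all genes to -0.091), so the split between rises and falls depends on the scaling. Without dKO replicates 1 and 4 the count was 2703, and 2648 of these were among the 4872. All 2794 and 2078 called genes kept their signs, which is little of a check, since the remaining arrays also decided the calls. With array position as a covariate the count was 141, 132 of the 4872 genes had the opposite sign, and 159 of the 181 called genes named here were no longer called. A call named below is termed borderline where leaving out at least 1 of the 8 arrays ended it, which held for 20 of the 181. Of the called genes, 4594 (94.3%) differed in the same direction on all 3 shared slides, a description only, since the same arrays decided the calls.

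**Figure D1:**
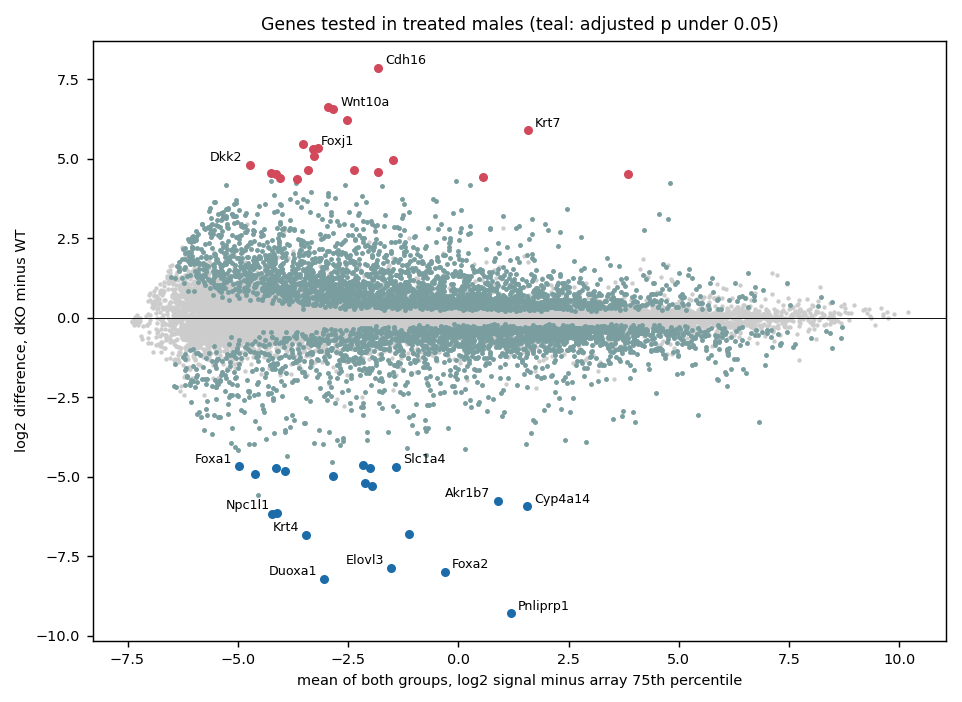
Difference between treated dKO and WT males (vertical axis, log2) against the mean level of both groups (horizontal axis, log2 signal minus the array's 75th percentile), 1 dot a gene, teal where adjusted p was under 0.05. Red and blue dots are the 20 highest and 20 lowest differences among called genes, from 7.85 for Cdh16 to -9.30 for Pnliprp1.

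Among called genes without overlap between groups, and with signal on all 4 arrays of the group where they were higher, the 20 largest rises were ranked by fitted difference. Those of 9 genes with signal on at least 1 WT array ranged from 4.41 to 7.85. The other 11 were above background on no WT array, so only bounds hold for them, from at least 6.73-fold to at least 45.4-fold higher, and their rank is not a measured one. Cdh16, a cadherin of kidney tubules and other ducts, was at -4.79, -6.42, -6.66 and -5.09 in WT (above background on 1 array) and at 2.78, 1.02, 2.33 and 2.31 in dKO. The lowest dKO value was far above the highest WT value, and the difference was 7.85 ± 0.64 (adjusted p = 4.65e-08). Wnt10a, a Wnt ligand, was at -6.23, -5.56, -6.26 and -6.43 in WT, all at background, and at 0.56, 0.37, 0.36 and 0.43 in dKO. The dKO values lay within a narrow band, and Wnt10a was at least 45.4-fold higher (adjusted p = 5.03e-08). The fast skeletal myosin-binding protein gene Mybpc2 was at least 43.3-fold higher and the endocytic receptor gene Lrp2 of absorptive epithelia at least 11.4-fold higher. Of these 20 genes, 18 were also called in the same direction between dKO and WT in treated females. Of all 4872 genes called in males, 1897 were.

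By the same rule the 20 largest falls held 12 genes with signal on at least 1 dKO array, with differences from -4.62 to -9.30. The other 8 were above background on no dKO array, with bounds from at least 5.99-fold to at least 78.3-fold lower. Pnliprp1, a gene of the pancreatic lipase family, was at 4.60, 6.05, 6.60 and 6.12 in WT and at -2.22, -4.82, -3.54 and -3.24 in dKO, a difference of -9.30 ± 0.67 (adjusted p = 1.19e-08). Every WT array lay far above every dKO array, and 3 of the 4 dKO values were above background. Elovl3, an elongase of very long fatty acids that is abundant in male mouse liver, was at 3.44, 1.80, 1.88 and 2.53 in WT and at -6.17, -4.09, -6.67 and -4.88 in dKO (-7.87 ± 0.61). Npc1l1, the transporter that takes up cholesterol from gut and bile, was at -1.24, -0.87, -1.04 and -0.98 in WT and at background on all 4 dKO arrays (-7.47, -6.65, -7.24 and -7.31). It was at least 18.2-fold lower (adjusted p = 6.42e-07). Duoxa1, the maturation factor of a hydrogen peroxide-forming oxidase, was at least 78.3-fold lower and Krt4, a keratin of stratified epithelia, at least 36.5-fold lower. Of these 20 genes, 12 were called in the same direction in treated females, against 1897 of all 4872 genes called in males. The targeted Foxa1 and Foxa2 were among those 12. A difference between the male and female effects (the sex by genotype interaction, below) was called for 11 of the 20 falls. It was called for 5 of the 20 largest rises and for 1335 of the 4872 genes.

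Among genes of bile duct cells, 21 of 34 tested members were higher and 3 lower in dKO, with a median difference of 1.69 against 0.046 over all genes. The share that rose, 21 of 34, compares with 14.5% of all genes. Krt7, a keratin of bile ducts, was at -1.07, -1.23, -1.83 and -1.35 in WT and at 4.57, 4.27, 4.59 and 4.65 in dKO. Both groups were tight and far apart, with a difference of 5.89 ± 0.45, and both Krt7 probes on the array agreed (5.89 and 6.07). Krt19, its partner keratin, rose by 2.22 ± 0.48. Sox9, a transcription factor of bile duct and progenitor cells, was at -3.21, -1.31, -2.63 and -2.39 in WT and at -0.15, -0.37, 0.34 and -0.12 in dKO (2.31 ± 0.37). WT replicate 2 was the highest of its group and still below every dKO array. Epcam, an adhesion molecule of biliary epithelium that adult hepatocytes lack, was at -4.55, -3.83, -5.61 and -4.63 in WT (above background on 2 arrays) and at -0.32, -0.83, -0.36 and -0.42 in dKO (4.17 ± 0.47). Other members that rose were the keratin Krt23 (4.17 ± 0.34), the tight junction gene Cldn7 (3.68 ± 0.30), the surface protein Cd24a (3.28 ± 0.42), the RNA-binding Bicc1 (2.93 ± 0.34) and the cyst-associated Pkhd1 (2.15 ± 0.14). The epithelial factor Ehf was at background in all WT and at least 2.49-fold higher. Prom1, a progenitor surface marker (-2.78 ± 0.56), Krt8 (-0.72 ± 0.20), which hepatocytes also express, and the water channel Aqp1 (-0.54 ± 0.13) fell.

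The mean level of the bile duct list was -1.66 to -0.93 on WT arrays and -0.051 to 0.45 on dKO arrays, which did not overlap. Its median was 0.90 to 2.15 within the shared slides and 1.59 to 1.79 with 1 array left out. With dim members at their bound it was 1.47, and with normexp background correction 0.65. Without dKO replicates 1 and 4, 19 higher and 3 lower were called. In bulk tissue more cells of a type and more RNA per cell cannot be told apart, here or for any list below. Jag1, the Notch ligand that patterns bile ducts, rose by 1.58 ± 0.14. Of 30 tested genes of the Notch, TGF-beta and Hippo pathways, 13 rose (43.3%, against 14.5% of all genes) and 1 fell (median 0.46). The YAP-responsive genes Ankrd1 (2.19 ± 0.38), Ccn2 (1.55 ± 0.19) and Ccn1 (0.91 ± 0.26, borderline) were among those that rose, while the Notch target Hes1 (-0.13 ± 0.32) was not called.

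**Figure D2:**
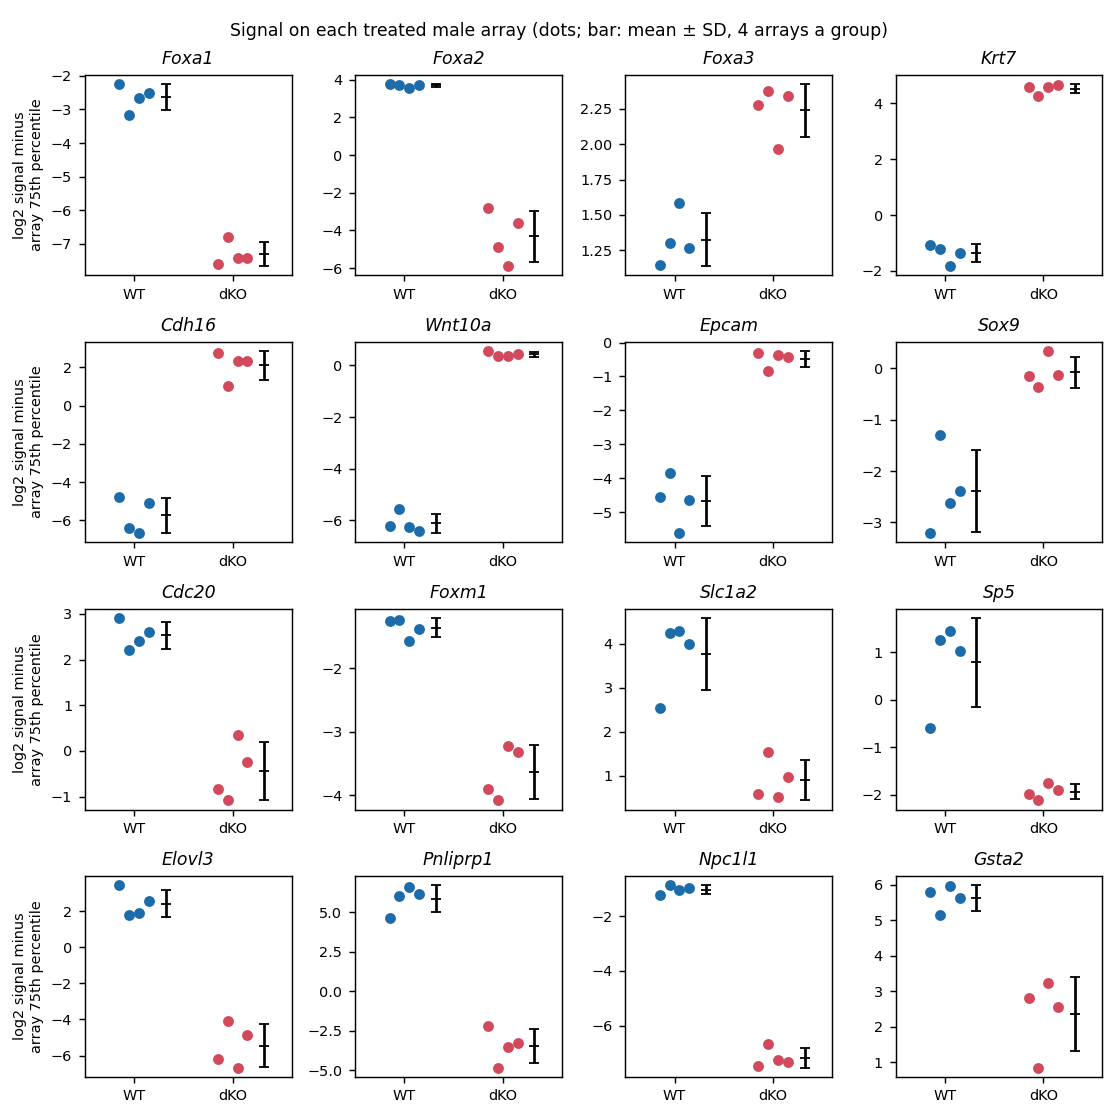
Levels of 16 genes on each of the 8 treated male arrays (vertical axes, log2 signal minus the array's 75th percentile, a scale of its own for each gene), WT in blue and dKO in red, with the mean ± SD of 4 arrays. In each panel the 2 groups do not overlap.

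Genes that mark other epithelia moved in both directions. Of 24 tested, 10 were higher (41.7%, against 14.5% of all genes) and 4 lower (16.7%, against 10.8%), with a median of 0.44 (0.24 without WT replicate 1, -0.054 with normexp background and -0.089 with position as a covariate). Besides Cdh16 and Foxj1, Tmem145 (3.72 ± 0.39, above background on 1 WT array) and the deoxyribonuclease gene Dnase1 (3.32 ± 0.45, on 2 WT arrays) rose, as did the gut keratin Krt20 (3.24 ± 0.85). Cldn6, a claudin of embryonic epithelium, was at least 2.42-fold higher. Against these, Krt4, the intestinal fatty acid-binding protein Fabp2 (-2.95 ± 0.32), the mucosal repair peptide Tff3 (-3.58 ± 0.87) and the claudin Cldn2 (-1.85 ± 0.29) fell. Genes known from the exocrine pancreas were lower or not called. Of 8 tested, 4 fell, Pnliprp1, Pnliprp2 (at least 10.9-fold lower, above background on 3 WT arrays), Cela3b (-3.95 ± 0.58) and Cela2a (at least 2.33-fold lower). The defining enzymes Ctrb1 (-0.078 ± 0.38), Amy2a5 (0.10 ± 0.52) and Cel (-0.45 ± 0.59) were not called. The median over the list was -2.05, or -1.12 once bounds replaced fitted values.

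The promoters of 3 of these strongly lower genes are shown because each holds letters that forkhead factors are known to prefer. The windows are the 250 bases before the RefSeq gene start (GRCm38.p6), 5′ to 3′ on the gene's strand, with forkhead-type matches on either strand in capitals. The letters searched were TGTTTAC and its variant TGTTTGC, and likewise TATTTAC and its variant TATTTGC. Shown are Pnliprp1 (chr19:58728637-58728886, plus strand), Akr1b7 (chr6:34412112-34412361, plus strand), an aldo-keto reductase, and Hsd3b5 (chr3:98645535-98645784, minus strand), a steroid dehydrogenase of male liver.
Pnliprp1: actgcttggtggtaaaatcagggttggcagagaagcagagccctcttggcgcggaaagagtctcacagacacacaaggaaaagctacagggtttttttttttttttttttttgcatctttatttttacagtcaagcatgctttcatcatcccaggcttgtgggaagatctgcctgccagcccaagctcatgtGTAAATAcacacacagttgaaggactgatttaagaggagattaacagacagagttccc
Akr1b7: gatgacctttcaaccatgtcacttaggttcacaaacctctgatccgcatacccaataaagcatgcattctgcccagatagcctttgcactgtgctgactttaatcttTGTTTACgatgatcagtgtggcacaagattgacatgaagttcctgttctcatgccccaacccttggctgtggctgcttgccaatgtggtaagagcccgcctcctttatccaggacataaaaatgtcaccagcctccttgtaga
Hsd3b5: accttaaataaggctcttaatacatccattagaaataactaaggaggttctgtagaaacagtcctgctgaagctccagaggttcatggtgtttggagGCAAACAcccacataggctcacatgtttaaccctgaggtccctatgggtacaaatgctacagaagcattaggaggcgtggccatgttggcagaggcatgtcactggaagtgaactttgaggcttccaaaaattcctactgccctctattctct
Each of the 3 windows holds 1 match. Among the 12043 tested genes with such a window, 8.79% held a match. A match stood in 53 of 440 windows of genes called 2-fold or more lower and in 61 of 764 (7.98%) of those called 2-fold or more higher. Of the 20 largest falls 4 of 14 with a window held one, and of the 20 largest rises 3 of 13. A match describes these letters only, and distal elements, where Foxa factors often bind, lie outside the window.

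Genes of pericentral hepatocytes, the cells around the central vein whose programme depends on Wnt signalling, fell. Of 24 tested, none rose and 16 fell (66.7%, against 10.8% of all genes), and the median was -1.47. Glul, the glutamine synthetase of the innermost pericentral cells, was at 6.74, 7.35, 7.28 and 7.26 in WT and 4.83, 5.05, 4.97 and 5.22 in dKO. Every dKO array was below every WT array, the difference was -2.14 ± 0.22 (adjusted p = 5.76e-07), and all 3 Glul probes fell (-1.12, -2.14 and -2.59). The pericentral glutamate transporter Slc1a2 was at 2.55, 4.24, 4.28 and 4.00 in WT and at 0.58, 1.53, 0.53 and 0.98 in dKO (-2.86 ± 0.57). Sp5, a direct target of beta-catenin and TCF, was at -0.60, 1.26, 1.44 and 1.03 in WT and at -1.98, -2.12, -1.75 and -1.90 in dKO (-2.72 ± 0.52). For these 3 genes WT replicate 1 was the lowest of the WT arrays, yet above all dKO arrays. The ammonium transporter Rhbg (-2.95 ± 0.52), the feedback genes Nkd1 (-1.64 ± 0.37) and Axin2 (-1.44 ± 0.47, borderline), the cytochrome Cyp1a2 (-1.61 ± 0.42) and the factor Tbx3 (-1.36 ± 0.37) also fell. Cyp2e1 (0.093 ± 0.55), Rgn (-0.12 ± 0.47) and Znrf3 (-0.14 ± 0.23) were not called. The median was -1.58 to -1.30 with 1 array left out and -1.81 to -1.34 within slides, and 11 members were called lower without dKO replicates 1 and 4. Slc1a4, a neutral amino acid transporter, showed the largest fall of the list, from 0.69, 1.25, 0.81 and 0.95 to -3.76, -4.36, -3.45 and -3.51 (-4.69 ± 0.44).

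The window before Sp5 (chr2:70474673-70474922 of GRCm38.p6, plus strand) is shown since it holds the TCF letters CTTTGAT, in capitals.
Sp5: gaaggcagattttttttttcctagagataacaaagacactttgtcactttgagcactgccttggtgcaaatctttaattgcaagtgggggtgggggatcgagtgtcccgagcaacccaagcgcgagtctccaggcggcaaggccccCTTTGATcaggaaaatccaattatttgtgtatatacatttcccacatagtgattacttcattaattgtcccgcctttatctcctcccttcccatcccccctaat
Of the 12 pericentral genes that fell and have a window, 3 held these letters on either strand, against 2.37% of all 12043 windows. In the whole pericentral list 3 of 15 windows held them.

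Of 21 genes of the periportal side, 5 were higher and 1 lower (median 0.55, 0.36 without dKO replicate 2), and the share called, 28.6%, was near the 25.3% of all genes. The periportal cytochrome Cyp2f2 (1.103 ± 0.25), the cadherin Cdh1 (1.099 ± 0.21) and Hsd17b13 (1.06 ± 0.16) rose and Ddc (-1.40 ± 0.37) fell, while the urea cycle enzymes Cps1 (0.92 ± 0.69), Ass1 (0.55 ± 0.41) and Arg1 (0.36 ± 0.24) were not called. Among Wnt ligands, receptors and inhibitors, 9 of 27 rose (33.3%, against 14.5% of all genes) and 6 fell (22.2%, against 10.8%; median 0.33, 0.040 with normexp background). Besides Wnt10a, the ligands Wnt7b (1.17 ± 0.23) and Wnt4 (0.95 ± 0.30, borderline) rose, as did the inhibitors Dkk3 (2.25 ± 0.27), Sfrp1 (2.76 ± 0.47) and Dkk2 (at least 6.73-fold) and the BMP antagonist Chrdl2 (6.22 ± 0.47). The Wnt inhibitor Wif1 (at least 13.1-fold lower), the co-receptor Lrp5 (-1.09 ± 0.16) and the factors Tcf7 (-0.90 ± 0.23) and Lef1 (at least 1.32-fold lower, above background on 3 WT arrays) fell. The endothelial ligands Wnt2 (-0.24 ± 0.33) and Wnt9b (-0.40 ± 0.33), which sustain the pericentral programme, and beta-catenin, Ctnnb1 (0.011 ± 0.074), were not called.

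Genes of mitosis were lower in dKO males. Of 36 cell-cycle genes tested, none rose and 23 fell (63.9%, against 10.8% of all genes), with a median of -1.56. Cdc20, the activator of the anaphase-promoting complex, was at 2.91, 2.21, 2.41 and 2.60 in WT and -0.83, -1.07, 0.36 and -0.24 in dKO. The groups were separate, with dKO replicate 3 the closest to WT, and the difference was -2.98 ± 0.45 (adjusted p = 6.4e-05). Foxm1 was at -1.26, -1.24, -1.57 and -1.38 in WT and -3.90, -4.08, -3.23 and -3.32 in dKO (-2.27 ± 0.41). The cyclin-dependent kinase-associated phosphatase Cdkn3 (-3.07 ± 0.53), the cyclin Ccnb1 (-2.63 ± 0.62), the kinesin Kif20a (-2.34 ± 0.43) and the kinases Plk1 (-2.10 ± 0.50) and Cdk1 (-1.88 ± 0.53) also fell. Mki67, the proliferation antigen, was at 0.70, 0.89, 0.53 and 0.59 in WT and -0.76, -0.93, 0.022 and -0.48 in dKO. Its groups did not overlap and its difference was -1.22 ± 0.40 (adjusted p = 0.0300), but the call was lost with slide as a fixed block (-1.07), without dKO replicates 1 and 4 (-1.13) and when any array other than WT replicate 3 or dKO replicate 3 was left out (-1.08 without dKO replicate 2). Cyclin D1, Ccnd1 (-0.11 ± 0.32), and cyclin E1, Ccne1 (0.61 ± 0.36), were not called. The list's mean level was -1.38 to -1.32 on WT arrays and -3.34 to -2.27 on dKO arrays, so the dKO arrays varied more among themselves. Without dKO replicates 1 and 4, 13 members were called lower and none higher.

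Of 32 tested genes of DNA replication, none rose and 10 fell (31.2%, against 10.8% of all genes; median -0.39), among them the helicase subunit Mcm2 (-1.03 ± 0.28) and the factor E2f1 (-1.08 ± 0.29). The replication clamp Pcna (-0.079 ± 0.11) and Mcm4 (0.00056 ± 0.18) were not called. Among p53 and DNA damage genes, 4 of 22 were higher (18.2%, against 14.5%) and 5 lower (22.7%, against 10.8%; median -0.37). The cell death genes Pmaip1 (1.43 ± 0.39) and Perp (1.08 ± 0.17) rose, Bbc3 (-1.03 ± 0.20), Ccng1 (-0.70 ± 0.20) and Mdm2 (-0.39 ± 0.10) fell, and the p53 target Cdkn1a (-1.104 ± 0.66) was not called. The calls of Pmaip1, Ccng1 and Mdm2 were lost without dKO replicates 1 and 4, and that of Ccng1 also with the mean of its probes.

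The windows before Cdc20 (chr4:118437344-118437593, minus strand) and cyclin B2, Ccnb2 (chr9:70421555-70421804, minus strand; -1.63 ± 0.40), are shown because they hold the letters TTTGAA, the core of the cell cycle homology region through which many mitotic genes are controlled. TTTGAA shares the letters TTTGA with the TCF motif CTTTGAT, but no single match counts for both.
Cdc20: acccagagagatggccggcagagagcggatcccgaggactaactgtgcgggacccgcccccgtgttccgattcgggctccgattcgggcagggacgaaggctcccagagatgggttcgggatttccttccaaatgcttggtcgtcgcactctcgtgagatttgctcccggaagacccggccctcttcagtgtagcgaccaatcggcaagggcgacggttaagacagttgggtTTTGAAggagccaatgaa
Ccnb2: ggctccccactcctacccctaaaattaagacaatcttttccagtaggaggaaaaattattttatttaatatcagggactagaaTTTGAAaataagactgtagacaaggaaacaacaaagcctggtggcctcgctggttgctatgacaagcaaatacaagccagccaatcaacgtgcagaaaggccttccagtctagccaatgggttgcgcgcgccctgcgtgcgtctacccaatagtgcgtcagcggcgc
Of 19 cell-cycle genes that fell and have a window, 7 (36.8%) held TTTGAA or TTCGAA on either strand, against 13.2% of all windows. In the whole cell-cycle list, whether a gene fell or not, 10 of 28 windows (35.7%) held them, so the share is not particular to the genes that fell.

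**Figure D3:**
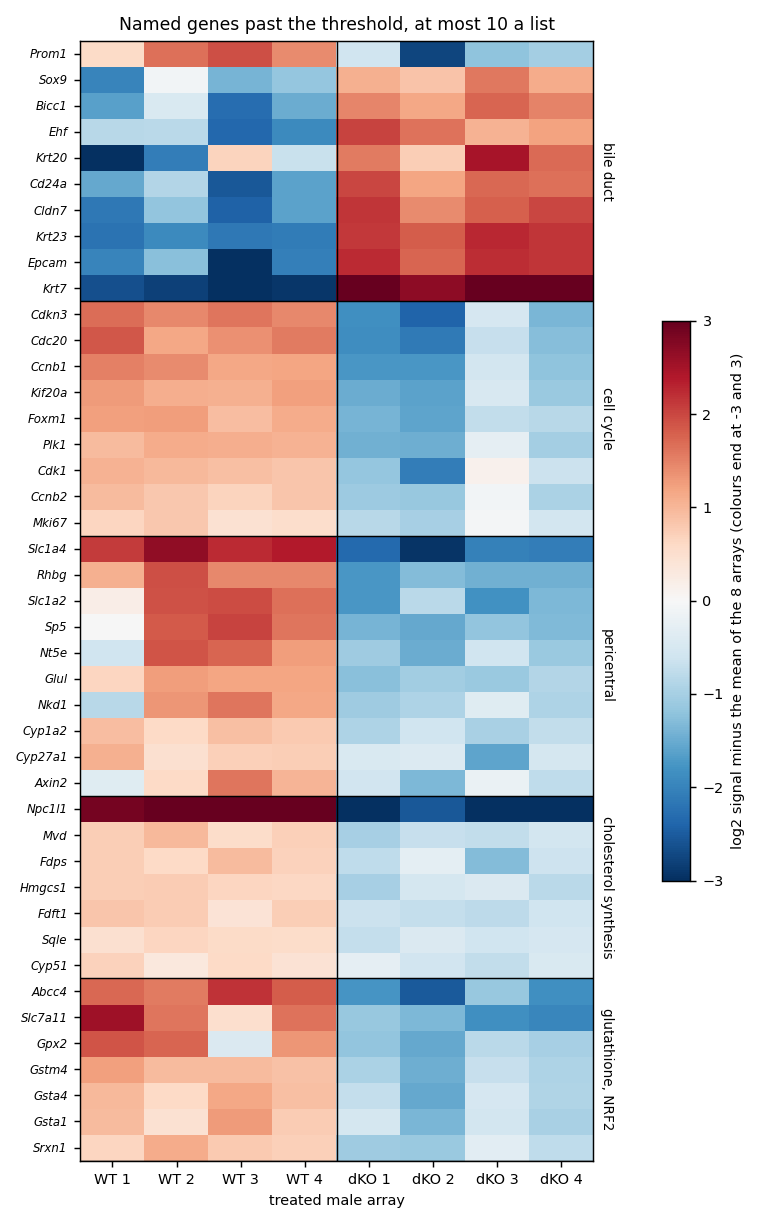
Up to 10 called genes of each of 5 lists, those with the largest differences among the genes named here (rows), on each treated male array (columns), as the log2 signal minus the mean of the 8 arrays, red above and blue below. Bile duct genes other than Prom1 are above the mean on dKO arrays, and the genes of the other 4 lists are below it there, save Cdk1 on dKO replicate 3, with dKO replicate 3 the palest for cell-cycle genes.

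Genes of fetal liver and of liver tumours moved in both directions, since 6 of 35 tested rose (17.1%, against 14.5% of all genes) and 11 fell (31.4%, against 10.8%). Afp, the albumin-like serum protein of fetal liver and many hepatomas, was at 3.13, 1.496, 1.94 and 2.31 in WT and -1.94, -1.95, -1.86 and -1.85 in dKO. The dKO arrays were nearly equal and all below the WT arrays, with a difference of -4.12 ± 0.52 (adjusted p = 8.73e-06). Ly6d, a small surface protein, was at 3.45, 5.86, 5.03 and 5.07 in WT and 0.15, -0.085, 2.46 and 1.21 in dKO (-3.92 ± 0.79), spread widely within both groups but not overlapping. The imprinted noncoding RNAs Rian (-2.86 ± 0.60) and Meg3 (-2.07 ± 0.71, borderline) and Mycn (-1.81 ± 0.35) also fell, as did Myc (-0.74 ± 0.25, adjusted p = 0.0346, borderline). Cd24a, the desaturase Scd2 and the factor Sox4 (1.25 ± 0.29) rose. Scd2 was at -0.049, 0.80, 1.43 and 0.84 in WT and 4.02, 4.29, 4.12 and 4.23 in dKO (3.41 ± 0.35). The fetal growth genes Igf2 (0.41 ± 0.71) and H19 (-1.01 ± 0.85) and the surface proteoglycan Gpc3 (-1.23 ± 0.48) were not called. The median over the list was -0.44 (-0.22 without WT replicate 2). The bound of the dim member Igf2bp3 (0.345) lay across 0 from its fitted value (-0.9065), so no median with bounds is given.

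Targets of CAR, the receptor that TCPOBOP activates, were lower or not called. Of 32 tested, none rose and 16 fell (against 10.8% of all genes; median -0.81). Akr1b7 was at 2.98, 4.07, 4.21 and 3.84 in WT and -1.41, -2.81, -1.91 and -1.84 in dKO, a separation of -5.77 ± 0.56. Gsta2, a glutathione transferase, was at 5.79, 5.14, 5.98 and 5.62 in WT and 2.81, 0.85, 3.24 and 2.55 in dKO (-3.27 ± 0.69). dKO replicate 2 was the lowest array, and all dKO arrays were below WT. Gstm2 (-3.06 ± 0.43), Cyp1a1 (-3.49 ± 0.53), Cyp2c55 (-2.38 ± 0.62) and the epoxide hydrolase Ephx1 (-1.75 ± 0.26) fell too. The classic target Cyp2b10 (-0.42 ± 0.45, adjusted p = 0.548), Cyp2c29 (-0.21 ± 0.42) and Cyp3a11 (-1.33 ± 0.52) were not called, nor was the receptor gene itself, Nr1i3 (0.78 ± 0.53). Of 24 glutathione and NRF2 target genes, none rose and 10 fell (41.7%; median -1.06). Abcc4, an efflux pump of bile salts and conjugates, was at 3.36, 3.22, 3.81 and 3.47 in WT and -0.11, -0.87, 0.51 and -0.20 in dKO (-3.63 ± 0.42). Gsta1 (-1.71 ± 0.32), Gsta4 (-1.82 ± 0.24), Gstm4 (-2.01 ± 0.30), the sulfiredoxin Srxn1 (-1.63 ± 0.48) and the glutathione peroxidase Gpx2 (-2.26 ± 0.68, borderline) fell, and the cystine transporter Slc7a11 was at least 2.54-fold lower (borderline). Nqo1 (-0.67 ± 0.43), Gclc (-0.85 ± 0.45) and Hmox1 (-0.69 ± 0.32) were not called. Near-identical glutathione transferase copies may share probe signal, and cross-hybridization between them was not tested.

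Genes of lipid metabolism were lower in several branches. In cholesterol synthesis and handling, none of 25 tested genes rose and 17 fell (68.0%, against 10.8% of all genes; median -0.96). Several steps of the mevalonate pathway fell by similar amounts. Hmgcs1, the synthase that starts it, was at 6.56, 6.58, 6.47 and 6.43 in WT and 4.83, 5.30, 5.38 and 5.002 in dKO (-1.38 ± 0.31), and Mvd (-1.49 ± 0.29), Fdps (-1.48 ± 0.31), Fdft1 (-1.37 ± 0.22), Sqle (-1.11 ± 0.24) and Cyp51 (-1.02 ± 0.22) fell as well. Srebf2, a transcriptional activator of the pathway (-0.30 ± 0.16), was not called. Normexp background moved the list's median to -0.84 and omission of dKO replicate 3 to -0.86. Of 35 genes of fatty acid oxidation and PPARA action, none rose and 13 fell (37.1%; median -0.58, -0.35 without dKO replicate 1, -0.36 without dKO replicates 1 and 4, -0.054 with position as a covariate). Those with the largest falls were microsomal hydroxylases and thioesterases. Cyp4a14 was at 5.90, 2.29, 4.98 and 4.91 in WT, lowest on replicate 2, and at -1.42, -2.19, -0.80 and -1.23 in dKO (-5.93 ± 0.57), Cyp4a31 was at least 11-fold lower, and Cyp4a10 (-3.84 ± 0.28), Acot1 (-3.98 ± 0.28) and Ehhadh (-1.38 ± 0.16) fell. The mitochondrial genes Cpt1a (-0.055 ± 0.23) and Acadm (-0.28 ± 0.16) and the receptor gene Ppara (0.12 ± 0.19) were not called.

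In fatty acid synthesis and lipid storage, 3 of 32 genes were higher and 12 lower (37.5%, against 10.8% of all genes; median -0.66). Fasn (-1.18 ± 0.30), Scd1 (-1.96 ± 0.51), Elovl6 (-1.99 ± 0.38), Acacb (-2.75 ± 0.49) and the fatty acid transporter Cd36 (-1.58 ± 0.29) fell. Scd2 and the droplet proteins Cidea (4.57 ± 0.52) and Plin4 (1.81 ± 0.53, borderline) rose. Scd1 and Scd2, desaturases of the same family, thus changed in opposite directions. Of 32 genes of bile acid synthesis and transport, 3 rose and 10 fell (31.2%; median -0.28). Cyp27a1, the sterol 27-hydroxylase (-1.49 ± 0.31), Cyp7b1 (-1.01 ± 0.25), Hsd3b7 (-1.06 ± 0.20) and Abcc4 fell. Cyp8b1, the 12-alpha-hydroxylase, was at 2.06, -0.32, 1.76 and 1.42 in WT and -0.56, -1.15, -1.73 and -1.01 in dKO. WT replicate 2 lay just above the dKO arrays, and the difference of -2.34 ± 0.85 (adjusted p = 0.0487) lost its call when any array other than WT replicate 2 was left out (-2.07 without WT replicate 1 to -2.53 without dKO replicate 1). The rate-limiting enzyme Cyp7a1 (0.030 ± 0.81) and the bile salt carriers Slc10a1 (0.35 ± 0.53) and Abcb11 (-0.28 ± 0.22) were not called.

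Few genes for the main products of hepatocytes were called. Alb, the defining secreted protein of hepatocytes, above background on all 8 arrays at 9.74 ± 0.10 (SD, n = 4) in WT and 9.73 ± 0.17 (SD, n = 4) in dKO, differed by -0.015 ± 0.15. Of 36 genes for secreted proteins and core metabolism tested, 2 rose, 1 fell and 33 were not called (median 0.13, 0.055 without dKO replicate 2), while 25.3% of all genes were called. The fibrinogen chain Fgg (0.50 ± 0.16, borderline) and Apoc3 (0.52 ± 0.16, borderline) rose and transferrin, Trf (-0.47 ± 0.089), fell. Among liver transcription factors 6 of 24 rose (against 14.5% of all genes) and 1 fell (median 0.27). Besides Sox9 and Sox4, the factors Gata6 (1.52 ± 0.15), Onecut1 (1.17 ± 0.28) and Onecut2 (0.54 ± 0.13) rose. Hnf4a (0.23 ± 0.17), Cebpa (0.57 ± 0.22) and Prox1 (0.32 ± 0.21) were not called.

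**Figure D4:**
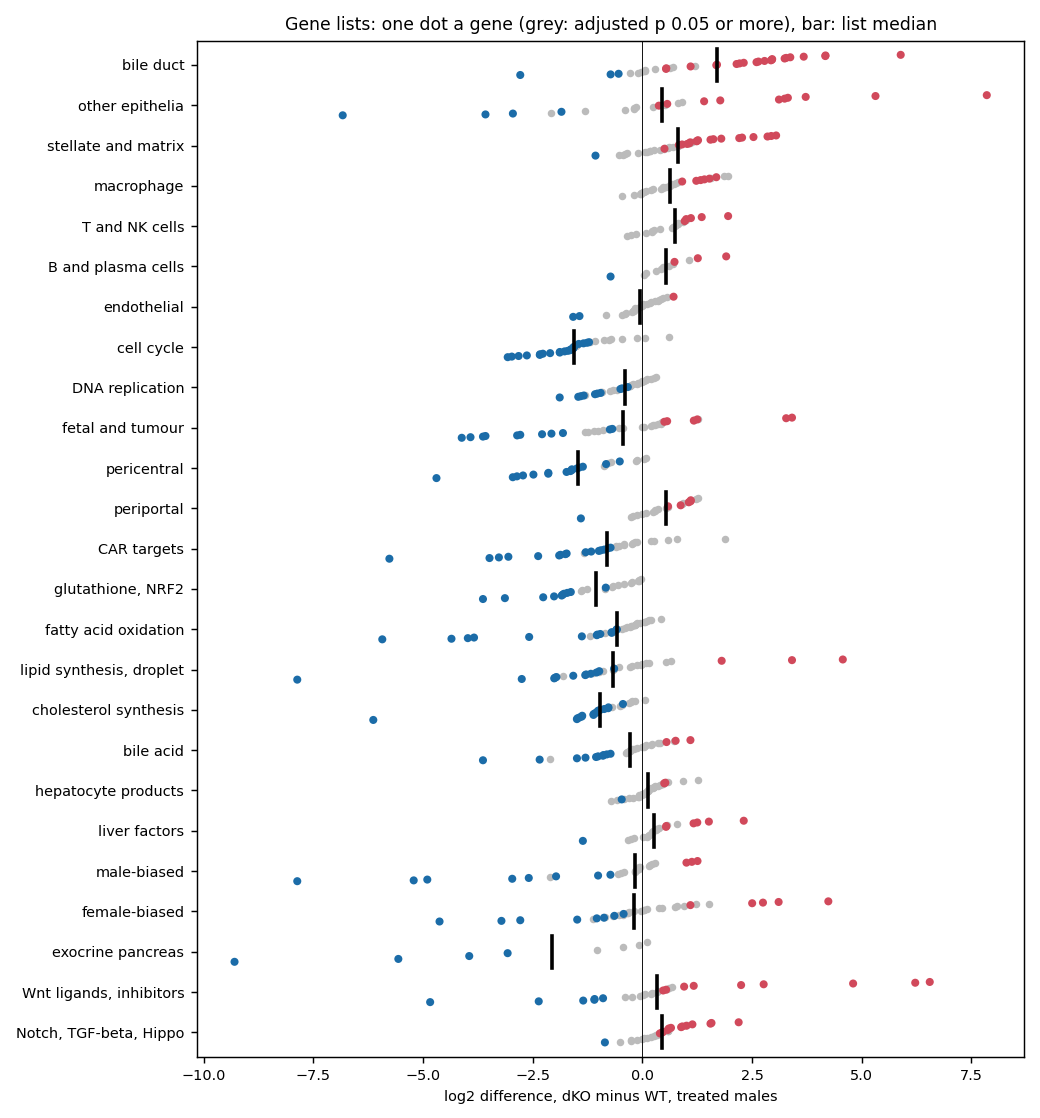
Differences of the genes of 25 lists between treated dKO and WT males (horizontal axis, log2), 1 dot a gene, red or blue where called higher or lower and grey where not called, with the list's median as a black bar. Bile duct genes extend to the right, with a median of 1.69, and cell-cycle and pericentral genes to the left, with medians of -1.56 and -1.47.

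Genes whose liver expression differs between the sexes moved in both directions. Of 26 male-biased genes tested, 3 rose and 8 fell (30.8%, against 10.8% of all genes), with a median of -0.16 (-0.32 without dKO replicate 2, -0.072 without dKO replicate 3). Besides Elovl3, the falls included Hsd3b5 (-5.21 ± 0.99), the carboxylesterase Ces2b (-2.97 ± 0.25), the complement gene C6 (-1.97 ± 0.28) and Moxd1 (at least 8.34-fold lower). The major urinary protein gene Mup1 (0.28 ± 0.36), whose many near-identical copies cannot be separated by 1 probe, Cyp4a12a (-0.16 ± 0.71), Cyp2d9 (0.22 ± 0.31) and the repressor Bcl6 (-0.064 ± 0.57) were not called. Of 33 female-biased genes, 5 rose and 8 fell (24.2%; median -0.18, -0.31 without WT replicate 2, -0.092 without WT replicate 1). The bounds of the dim A1bg (-0.5575) and Cux2 (-0.149) lay across 0 from their fitted values, so no median with bounds is given. Sult2a2, a hydroxysteroid sulfotransferase of female liver, was at 0.051, 2.27, 4.86 and 3.56 in WT, a wide spread, and at 6.75, 6.68, 7.39 and 6.87 in dKO. All dKO arrays were above the highest WT array (4.24 ± 0.84, adjusted p = 0.000824), and the call was lost with the mean of the gene's probes (2.36). The female-type genes Hamp2 (3.11 ± 0.88), Slc22a26 (2.75 ± 0.60) and Ntrk2 (2.502 ± 0.71) rose, whereas Slc22a29 (-4.62 ± 0.43), Hao2 (-3.21 ± 0.61) and Cyp3a44 (-1.49 ± 0.52, borderline) fell. Cyp2b9 (-0.33 ± 0.41) and Cux2 (1.21 ± 0.58) were not called.

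Among receptors and mediators of sex hormone and growth hormone action, 3 of 19 genes tested rose (15.8%, near the 14.5% of all genes) and 1 fell (median 0.23, 0.13 without WT replicate 2). Igf1, the growth hormone target secreted by hepatocytes, rose by 1.24 ± 0.19 and the thyroid hormone receptor Thrb by 0.68 ± 0.18, and the steroid 5-alpha reductase Srd5a1 fell (-0.999 ± 0.19). The estrogen receptor Esr1 (-0.080 ± 0.24), the growth hormone receptor Ghr (-0.16 ± 0.23) and Stat5b (0.22 ± 0.15) were not called.

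Markers of other cells of the liver were measured in the same tissue. Of 39 genes of stellate cells, fibroblasts and matrix, 18 rose (46.2%, against 14.5% of all genes) and 1 fell (median 0.81). Mmp2, a gelatinase of stromal cells, was at -3.62, -2.86, -4.77 and -3.47 in WT and -0.36, -0.99, -0.67 and -0.50 in dKO (3.05 ± 0.32). WT replicate 2 was the highest of its group and below all dKO arrays. Pdgfra (2.27 ± 0.19), Lum (2.53 ± 0.21), Mgp (2.94 ± 0.24), Loxl1 (2.85 ± 0.29) and desmin, Des (1.27 ± 0.25), rose, Postn (-1.07 ± 0.30) fell, and the fibrillar collagens Col1a1 (1.13 ± 0.43) and Col3a1 (0.81 ± 0.33) and smooth muscle actin, Acta2 (-0.10 ± 0.20), were not called. The list's mean level was -0.87 to 0.26 on WT and 0.49 to 0.76 on dKO arrays, and its median ranged from 0.20 to 1.70 within slides. The part of stromal cell number in the other lists was not tested.

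Among lists of blood cell, vessel, adipocyte, interferon and acute phase genes, the share called ran from 7.69% (neutrophil) to 33.3% (B and plasma cells), against 25.3% of all genes. Of 29 macrophage genes 6 rose (median 0.62), namely H2-Aa, H2-Ab1 (1.33 ± 0.44, borderline), Cd74 (1.23 ± 0.45, borderline), Itgax (1.41 ± 0.43, borderline), Ctss (0.91 ± 0.32, borderline) and Spp1 (1.68 ± 0.33), the last also on the bile duct list, while the Kupffer cell genes Clec4f (0.63 ± 0.39), Timd4 (0.046 ± 0.29) and Adgre1 (-0.037 ± 0.38) were not called. H2-Aa was at -0.14, 1.97, -0.66 and 0.73 in WT and 2.43, 1.73, 1.68 and 2.17 in dKO. WT replicate 2 overlapped the dKO arrays, and the difference of 1.53 ± 0.41 (adjusted p = 0.00867) lost its call without dKO replicates 1 and 4 (1.23) and with only the 8 treated male arrays in the fit. Without those 2 arrays 1 macrophage gene was called. Of T and NK cell genes 5 of 21 rose (median 0.75), the chemokine Xcl1 (1.95 ± 0.43) and Cxcr6 (1.35 ± 0.35) among them. Of 12 B and plasma cell genes 3 rose and 1 fell (median 0.54), of 13 neutrophil genes S100a9 (1.99 ± 0.63, borderline) rose (median 1.18, or 0.63 with bounds in place of fitted values), and of 5 red cell genes Alas2 (-2.17 ± 0.31) fell (median -0.45). Of 27 endothelial genes Cd34 (0.71 ± 0.25, borderline) rose and Tie1 (-1.58 ± 0.26) and Lyve1 (-1.43 ± 0.44, borderline) fell (median -0.049). Of 7 adipocyte genes only Cidea was called (median -0.011), and the defining Adipoq and Plin1 were above background on 1 and none of the 8 arrays. Of 28 interferon response genes 4 fell and none rose (median -0.30), and of 28 acute phase genes 5 rose, led by Il6ra (1.47 ± 0.26), and 1 fell (median 0.19). With position as a covariate the medians were -1.17 for interferon, -0.86 for acute phase and -0.057 for T and NK cell genes, and with normexp background the last was 0.14 and the neutrophil median 0.27. Single arrays moved several of these medians. Without WT replicate 3 the median was 0.18 for macrophage, 0.45 for T and NK cell and 0.32 for B and plasma cell genes, and without dKO replicate 3 it was 0.69 for neutrophil genes. Without WT replicate 1 acute phase genes turned to -0.014 and endothelial genes to 0.053, and without WT replicate 2 acute phase genes were at 0.52 and interferon genes at -0.16. Adipocyte genes were at -0.41 without dKO replicate 4 and 0.29 without dKO replicate 1, and endothelial genes at -0.15 without WT replicate 3.

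The effect in males was set against that in treated females by the sex by genotype interaction, which was called for 2424 of 19238 genes (12.6%). Of the 4872 genes called in males, 1335 were also called in the interaction. In the same direction 1897 genes were called in both sexes, and 252 were called in opposite directions. All 252 were called in the interaction, which is no separate result, since called differences of opposite sign add up in it. Of those 252, 172 were lower in male and higher in female dKO and 80 the reverse. The cell-cycle list was on the first side. Its median was -1.56 in males and 1.97 in females, and the interaction was called for 31 of 36 members. For Cdc20 the female difference was 1.76 ± 0.45 and the interaction, male minus female, -4.74 ± 0.64 (adjusted p = 0.000697). Afp (-4.84 ± 0.74), Ly6d (-7.04 ± 1.12) and Abcc4 (-3.62 ± 0.59) showed interactions of the same sign. The bile duct list had a median above 0 in both sexes, 1.69 and 1.47, and an interaction for 9 of 34 members, Epcam (2.59 ± 0.67) among them. The pericentral list had a median below 0 in both, -1.47 and -1.15, and an interaction for 2 of 24 members, Slc1a4 (-4.16 ± 0.63) and Nt5e (-2.20 ± 0.72). Sult2a2 (5.13 ± 1.18), Hamp2 (4.38 ± 1.25) and the retinol dehydrogenase family gene Rdh16f2 (3.96 ± 0.87) had interactions above 0. Npc1l1, at background in male dKO, had a difference of -0.067 ± 0.62 in females (interaction adjusted p = 0.000738). The interaction count was 1727 to 2452 with 1 male array left out, 1049 without dKO replicates 1 and 4 and 712 with position as a covariate.

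**Figure D5:**
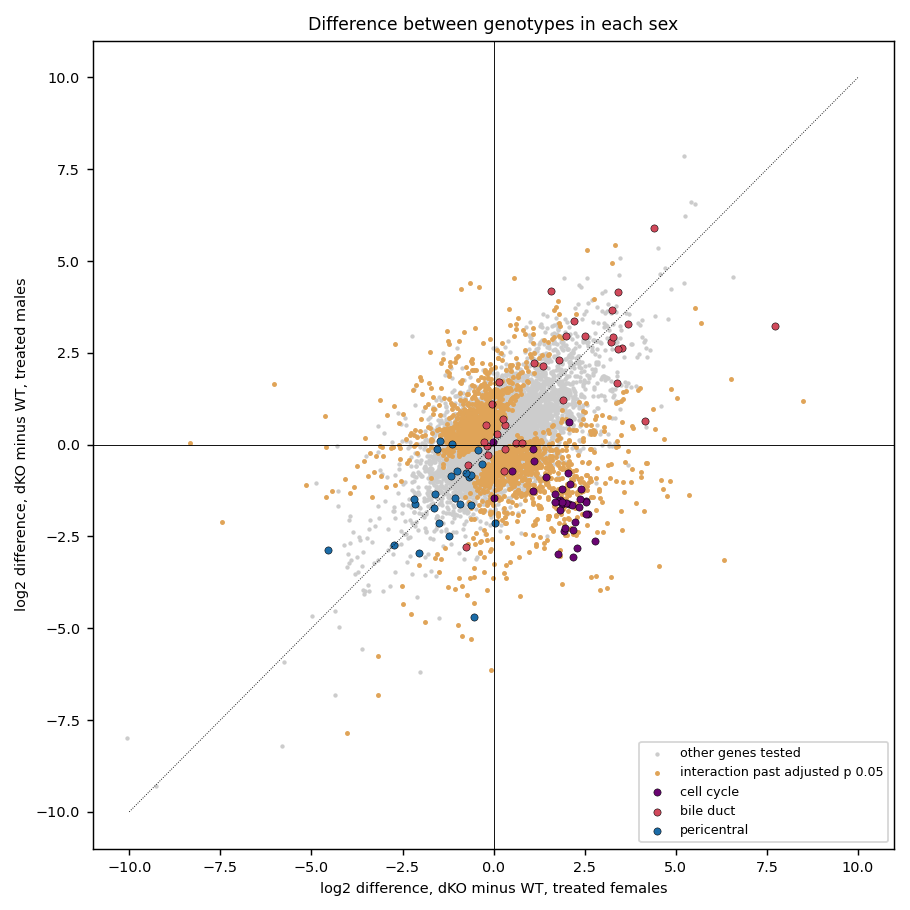
Difference between treated dKO and WT mice in males (vertical axis, log2) against that in females (horizontal axis, log2), 1 dot a gene, orange where the interaction was called, with 3 gene lists marked. Cell-cycle genes lie at the lower right (medians -1.56 and 1.97), while bile duct genes extend to the upper right and pericentral genes lie mostly at the lower left.

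Genes that lie side by side on a chromosome sometimes changed together. There were 17 runs of 4 or more neighbouring tested genes all called in the same direction. The longest held 7 genes that fell on chromosome 4, Dnajc16, Casp9, Cela2a, Ctrc, Efhd2, Fhad1 and Tmem51, with differences of -0.44 for Dnajc16, -0.65 for Casp9, -0.52 for Efhd2, -1.65 for Fhad1 and -0.93 for Tmem51. Cela2a and Ctrc, at background on all dKO arrays, were at least 2.33-fold and at least 6.80-fold lower. The interleukin-1 receptor family genes Il1r1 (0.97 ± 0.25), Il1rl2 (1.66 ± 0.28), Il1rl1 (at least 1.73-fold higher, at background on all WT arrays) and Il18r1 (2.15 ± 0.46) on chromosome 1 rose together, and Gsta4, Gsta1 and Gsta2 on chromosome 9 fell together with their neighbour Dppa5a (-0.81 ± 0.23). With normexp background the calls of Il1rl2, Il1rl1 and Il18r1 were lost, and without dKO replicates 1 and 4 those of Il1r1, Dppa5a and Dnajc16. How many such runs arise by chance was not tested. Probes of 1 gene mostly moved together. Of 1047 genes with 2 or more called probes, 50 had probes called in opposite directions, such as Tmc7 (-3.85 and 3.11) and Gabbr2 (-1.70 and 1.52), so for those genes a direction cannot be given for the gene as a whole.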

How the data were processed

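RNA from mouse livers was hybridized to 24 one-colour (Cy3) Agilent arrays, and the 8 arrays of treated males are described here. The authors deposited scanner intensity files made with Feature Extraction (10.5.1.1 per the file headers, 9.53 per the submitters' processing notes), which subtracts background and detrends each spot. The authors' deposited table of this comparison gives a signed fold and a false discovery rate in percent for 32579 probes, and all 4872 genes called here had the same sign in it. That table describes the same comparison in the same series, so the match is no independent support. The levels used here are log2 of the processed signal minus each array's 75th percentile. Control spots and outlier-flagged spots (72 to 126 an array on these 8) were left out, no spot was saturated, and 28051 of 41174 probes, those well above background on 4 or more of the 24, were kept. The brightest probe stood for a gene, which gave 19238 genes. Symbols came from RefSeq (GRCm38.p6) by accession for 26690 probes and from the files for 9265 and 5123.

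limma 3.58.1 (R 4.3.3) fitted 6 group means over all 24 arrays, with Benjamini-Hochberg adjustment over all genes and a threshold of 0.05, and the interaction as male minus female. The fit was tested on simulated data with known changes and independent noise. The simulated data held no slide, position or background effect, so the test cannot speak to those. Members and gene lists were chosen with earlier results of these data known, so a list's direction is no independent support. Named genes were fixed names, the 20 largest differences in each direction, up to 10 called members of each list by size and its first 5, the 10 largest interactions in each direction, and genes whose probes disagree. A list is described by its counts and median beside those of all genes. Genes of the neighbour runs and further list members were named after their values were seen. Several genes meeting these criteria were left out of the text. The number of arrays limits the precision. Replicate numbers did not pair the arrays: correlations of deviations between same-numbered arrays were -0.074, 0.021, 0.027 and -0.16, and no array correlated best with its own number. Alternatives changed the arrays in the fit, background correction, scaling, filter, probe choice, variance model, slide, position and replicate block.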

Additional observations from a re-analysis of the deposited data

Results flagged for a closer look

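Of 130 sets of 4 arrays examined, 3 held an array far from the other 3, where chance gives about 1 in 20. The level of Glul on WT replicate 1 was 6.74, below the other WT arrays. Slc1a2 on the same array was at 2.55, also below the other WT arrays. WT replicate 1 had the fewest spots well above background of the 8 arrays (52.7%), and the part of this in both values was not tested. The mean level of the female-biased list on dKO replicate 2 was 2.40, apart from the other dKO arrays.

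In the limma interaction test (adjusted p under 0.05), genotype effects differed between treated males and females for 32 of 49 genes followed. The genes followed included those with the largest interactions in each direction, chosen for that reason. The count of 32 is therefore partly fixed by the choice and does not measure how common such differences were. Over all genes tested the interaction was called for 12.6%. Values are the male minus the female difference on the log2 scale. Where a group was at background, the fitted size is no bound. Cell division genes were on the male-lower side, with Cdc20 at -4.74, Foxm1 at -4.22, Mki67 at -3.11 and Ckap2, a spindle protein gene, at -6.28. Genes of transport and detoxification on the same side were Slc7a11 (-9.47), Npc1l1 (-6.07), Slc1a4 (-4.16), Abcc4 (-3.62), Gsta2 (-3.62) and Akr1b7 (-2.58). Afp (-4.84), Elovl3 (-3.85), Ly6d (-7.04), the retinoid-binding protein gene Rbp7 (-7.85), Fam83a (-6.88), Sdcbp2 (-6.83), Eps8l3 (-6.38), Mab21l3 (-5.84) and Bmp8b (-5.67) were further genes on that side. On the male-higher side were the sulfotransferase genes Sult2a2 (5.13) and Sult2a4 (5.05), Hamp2 (4.38), Rdh16f2 (3.96), Slc22a26 (3.96) and Serpina4-ps1 (4.70). Epcam (2.59), Foxj1 (2.74), the muscle myosin gene Myh2 (4.26), 4930404H11Rik (3.88), 4933416I08Rik (3.76) and the transcript ENSMUST00000120522 (4.07) lay there too. Xist had an interaction of 3.69 (adjusted p = 0.0117), which rests on the dKO arrays with Xist signal. Sequence shared among sulfotransferase copies can bring the same RNA to several probes, which was not tested.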

How the results depend on the processing

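The count of called genes, 4872, was 3882 to 4717 with 1 array left out (2235 to 2701 higher, 1617 to 2095 lower, interaction 1727 to 2452). With normexp background it was 2656 (1340 higher, 1316 lower, interaction 1327), and 88 called genes turned sign. Median centring gave 4782, with 1791 higher. Without a filter the interaction count was 1589. Position as a covariate gave 141 (73 higher, 68 lower, interaction 712), and leaving out dKO replicates 1 and 4, chosen after seeing the data, gave 2703 (1592 higher, 1111 lower, interaction 1049). The replicate block, for numbers that do not pair the arrays, gave 4636.

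List medians moved by more than the spread between replicates as follows, and the cause was not tested. With normexp background, cholesterol synthesis was -0.84, cell cycle -1.03, glutathione -0.81, bile duct 0.65, T and NK cells 0.14, neutrophils 0.27, exocrine pancreas -0.72, Wnt ligands and inhibitors 0.040, Notch, TGF-beta and Hippo 0.29, and other epithelia turned to -0.054. With median centring, liver factors were 0.14, cholesterol synthesis -1.10, bile acid -0.41, DNA replication -0.52, endothelial -0.19, Wnt 0.19 and Notch 0.32, while quantile scaling gave liver factors 0.33. Genes above background on all 24 arrays gave glutathione -0.84, other epithelia 0.088, adipocyte -0.78, Wnt 0.13 and exocrine pancreas turned to 0.011. The mean of a gene's probes gave Wnt 0.19. Slide as a fixed block gave female-biased -0.45, periportal 0.33 and Wnt 0.11. Position as a covariate gave liver factors 0.46, male-biased -0.50, fatty acid oxidation -0.054, lipid synthesis -0.41, cholesterol synthesis -1.35, bile acid -0.10, hepatocyte products 0.37, glutathione -1.43, bile duct 1.18, adipocyte -3.30 and interferon -1.17, and turned other epithelia to -0.089, endothelial to 0.15, T and NK cells to -0.057 and acute phase to -0.86. Without dKO replicates 1 and 4, fatty acid oxidation was -0.36 and adipocyte -0.34. With only genes bright in a treated male group, also chosen after seeing the data, liver factors were 0.32, bile duct 2.18, adipocyte -0.75 and exocrine pancreas -1.03. With 1 array left out, 16 of 32 list medians moved by over 1.5 times or changed sign, as given beside each list. Medians ranged -0.70 to -0.35 for fatty acid oxidation, 0.23 to 0.32 for liver factors, -1.01 to -0.86 for cholesterol synthesis and -0.41 to 0.29 for adipocyte genes.

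Of the 181 called genes named, the calls lost without WT replicate 1 were Mki67, Cyp8b1, Apoc3, Cd34, Cd74, Ctss, Cyp3a44, Gpx2, H2-Ab1, Meg3, Plin4 and Slc7a11. Without WT replicate 2 they were Mki67, Cyp3a44, Fgg, Gpx2, Meg3, Myc and Slc7a11, without WT replicate 3 Cyp8b1, Axin2, Ccn1, Cd34, Cd74, Ctss, Cyp3a44, Fgg, H2-Ab1, Itgax, Lyve1, S100a9 and Wnt4, and without WT replicate 4 Mki67, Cyp8b1, Axin2, Cd34, Cd74, Ctss, Cyp3a44, Meg3, Myc and Slc7a11. Leaving out dKO replicate 1, 2, 3 or 4 ended 12, 12, 13 and 12 calls, all among these genes. Leaving out dKO replicates 1 and 4 together ended 42, Cdk1, Plk1, Mcm2, E2f1, Ccnb2, Scd1, Fasn, Hamp2, Ntrk2, Krt20, Cyp1a2, Tbx3, Srxn1, Onecut1 and Onecut2 among them. Normexp background ended 17, among them the dim Cldn6, Ehf, Lef1 and Xcl1. No named gene turned sign past the threshold in any alternative. Probes near background, 11 of the 20 largest rises in WT among them, give bounds only.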
